A study of Mus musculus with 9 samples.

Results

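The genes described are 9 genes of megakaryocytes and platelets, namely Pf4, Vwf, Gp1bb, Gp9, Itga2b, Itgb3, F2rl2, Gfi1b and Fli1. They were chosen by symbol, each matched 1 row of the deposited table, and they are 9 of its 23317 genes. All 9 passed the filter on low counts. Low-input RNA sequencing had been done on sorted cells labelled as hematopoietic stem cells (HSCs) of mouse bone marrow, in 9 libraries of 1500 cells each. The groups were old HSC treated with ABC294640 (by the labels a sphingosine kinase 2 inhibitor), untreated old HSC, and young HSC, with 3 libraries each. All mice were wild type. The protocols give ages of 20 to 24 months or 2 to 4 months, taken here as those of the old mice, treated and untreated, and of the young mice. How the inhibitor was given, at which dose and for how long, and the markers used for sorting, are not stated in the sources at hand. No label ties the 3 libraries of a group to separate mice, and p-values therefore cover only the spread among libraries, part or all of which may be technical.

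Megakaryocytes are the large marrow cells that shed platelets, and in mice part of the HSC pool carries transcripts of this lineage, so that Vwf and Itga2b are read in stem cells as well as in megakaryocytes. Platelets hold to a damaged vessel when the glycoprotein Ib-IX-V complex on their surface binds von Willebrand factor, and they join to each other when the integrin of alpha IIb and beta 3 binds fibrinogen. Thrombin and other agonists switch that integrin on, and platelet granules then release proteins such as platelet factor 4. Among the transcription factors of the lineage, GFI1B is a zinc finger repressor shared with red cell precursors, and FLI1 is an ETS factor of megakaryocytes and endothelium.

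Promoters are shown for genes that were lower in old HSC, 5 of the 9, each called on its own. Whether these genes moved together was not tested. RefSeq promoter windows (GRCm38.p6, 250 bases before to 50 after the RefSeq start) were at hand for 6 of the 9 genes, including 4 of those 5. Each is printed 5′ to 3′ on the gene's strand, and capitals mark GATAA, a core bound by GATA factors, and GGAAG, a core bound by ETS factors, on either strand (GGAAG reads as CTTCC on the other strand).
Pf4, chr5:90772185-90772484, plus strand: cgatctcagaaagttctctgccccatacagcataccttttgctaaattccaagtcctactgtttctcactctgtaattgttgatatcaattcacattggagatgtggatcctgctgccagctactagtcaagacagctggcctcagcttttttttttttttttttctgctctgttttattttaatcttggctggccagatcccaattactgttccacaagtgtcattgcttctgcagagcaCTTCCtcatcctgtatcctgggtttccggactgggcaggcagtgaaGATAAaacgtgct
F2rl2, chr13:95696670-95696969, plus strand: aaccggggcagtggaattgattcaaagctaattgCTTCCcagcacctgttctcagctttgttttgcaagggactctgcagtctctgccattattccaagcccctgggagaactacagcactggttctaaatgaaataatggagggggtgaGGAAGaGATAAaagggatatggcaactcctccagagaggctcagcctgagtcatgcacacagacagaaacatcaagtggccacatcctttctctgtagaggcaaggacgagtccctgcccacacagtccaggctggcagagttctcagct
Gfi1b, chr2:28621933-28622232, minus strand: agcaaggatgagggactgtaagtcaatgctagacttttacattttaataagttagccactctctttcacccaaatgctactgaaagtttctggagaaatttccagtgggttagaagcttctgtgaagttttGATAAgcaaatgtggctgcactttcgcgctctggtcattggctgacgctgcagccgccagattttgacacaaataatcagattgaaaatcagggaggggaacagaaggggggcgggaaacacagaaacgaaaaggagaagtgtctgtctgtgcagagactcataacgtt
Gp1bb, chr16:18622354-18622653, minus strand: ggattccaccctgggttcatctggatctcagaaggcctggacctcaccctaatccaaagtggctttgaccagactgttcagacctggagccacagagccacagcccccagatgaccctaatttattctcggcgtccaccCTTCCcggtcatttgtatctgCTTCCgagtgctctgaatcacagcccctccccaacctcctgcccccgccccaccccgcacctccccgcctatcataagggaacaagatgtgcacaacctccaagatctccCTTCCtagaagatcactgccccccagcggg
In F2rl2 the ETS core began 100 bases before the start and the GATA core 94 bases before it, and a further ETS core began 216 bases before it. In Pf4 the ETS core began 9 bases before the start and the GATA core 37 bases after it. Gfi1b held GATAA 119 bases before the start and no GGAAG on either strand, and Gp1bb held 3 ETS cores and no GATAA on either strand. Only these exact words were searched, so a window without a word may still hold another form of that core. The 6 promoters at hand include those of Gp9 and Itga2b, which were not called lower in old HSC and are not printed. The GATA core was found in 4 of the 6 (66.7%), against 25.4% of all 32851 RefSeq promoters of this length. The ETS core was in 5 of 6 (83.3%), against 71.4%. The RUNX core TGTGGT, searched on both strands, was in 1 of 6 (Gp9), against 16.8% of all. These matches are a description of the letters in these windows, and nothing follows from them about the factors.

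Library totals ran from 16663460 to 23254133 counts. A level is given in CPM, the counts of a gene relative to its library's size as scaled by TMM, as mean ± SD over 3 libraries, and levels of different genes are compared only as CPM per kb of exon. The stem cell label was set against its markers. The stem cell markers Procr, Slamf1, Mecom and Hlf had group means between 0.55 and 3.29 CPM per kb. Elane, a granule protease gene of granulocyte-monocyte progenitors, stood at 15972 ± 128, 16521 ± 697 and 11325 ± 1074 CPM per kb. Granulocyte genes thus far outranked the stem cell markers, and the cells are called HSC only as in the labels. Old and treated old libraries also differed from young ones in the Y-linked gene Ddx3y (32.3 to 43.1 CPM in treated old, 35.9 to 44.7 CPM in old and 0.664 to 1.18 CPM in young libraries), so that age and the sex of the donors cannot be told apart here.

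Per length, Pf4 was far above the other 8 genes in every group, at 319 ± 7.91, 247 ± 18.0 and 520 ± 23.1 CPM per kb in treated old, old and young HSC. It was followed by Gfi1b (34.5 ± 0.699, 32 ± 1.73 and 47.9 ± 3.99) and Fli1 (25.9 ± 0.856, 23.8 ± 0.563 and 22.7 ± 1.43). The genes next in order were the transcripts of the thrombin receptor F2rl2 (8.57 ± 0.45, 7.52 ± 0.384 and 13.5 ± 0.453), of Gp9 (11.1 ± 0.588, 10.7 ± 1.26 and 12.7 ± 1.29) and of Gp1bb (9.12 ± 0.784, 8.05 ± 0.753 and 12.9 ± 1.97), whose libraries overlapped on that scale in young HSC. Itga2b stood at 3.91 ± 0.044, 3.97 ± 0.139 and 4.24 ± 0.373 CPM per kb. Vwf (0.941 ± 0.0271, 0.78 ± 0.0351 and 1.34 ± 0.0794) and Itgb3 (0.937 ± 0.0256, 1.11 ± 0.22 and 1.27 ± 0.144) were lowest, with libraries that overlapped between these genes in treated old and in young HSC. The exon length is the union over all annotated transcripts, 721 bases for Pf4 and 16064 for Vwf, so a gene whose cells use a short transcript is read low on this scale. Of 10 late megakaryocyte and platelet markers, which include Pf4 and Gp9, 7 passed the filter on low counts. Their summed level, mostly Pf4, was 264 to 279 CPM in treated old, 198 to 226 CPM in old and 415 to 451 CPM in young libraries. In old against young HSC 5 of the 7 fell, Pf4 among them, and 0 rose. Of all genes tested, 19.8% fell and 19.6% rose in that comparison. The 3 markers that did not pass the filter were close to absent. Tubb1, the platelet beta tubulin gene, had 0 to 3 counts per library, the collagen receptor gene Gp6 0 to 9, and the ADP receptor gene P2ry12 3 to 18.

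**Figure D1:**
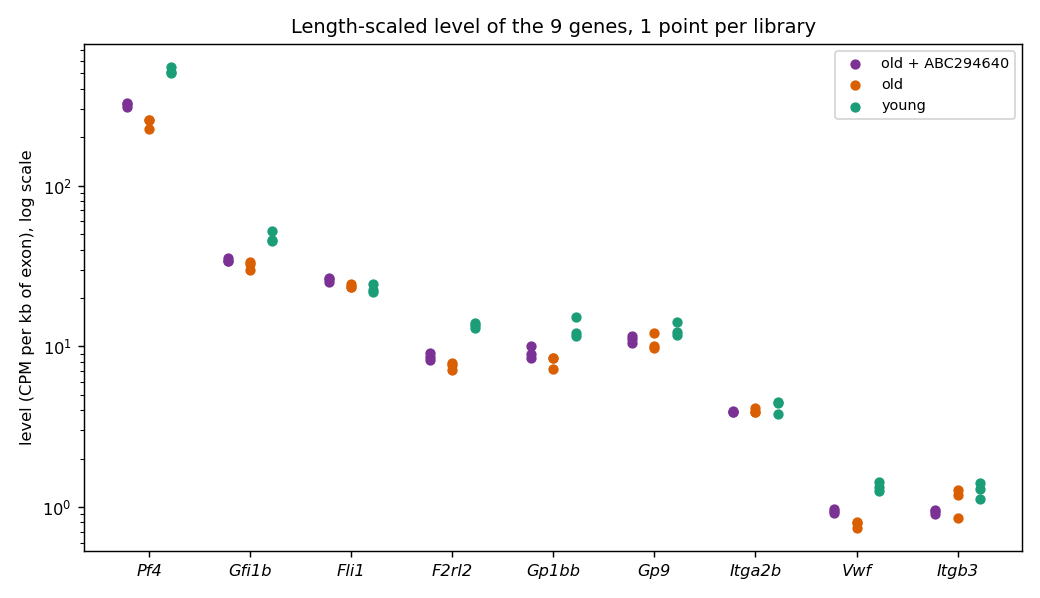
Level of the 9 genes as CPM per kb of exon on a log scale, 1 point per library, with treated old, old and young HSC from left to right for each gene. Pf4 lies more than a decade above Vwf, Itgb3 and Itga2b in every group, and the genes are ordered by their mean in young HSC.

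Old HSC were set against young HSC for the differences that go with age. Of the 9 genes, 5 fell in old HSC and 0 rose. They were Pf4, F2rl2, Vwf, Gp1bb and Gfi1b, by 1.5- to 2.11-fold, whereas both integrin genes, Gp9 and Fli1 did not pass the test. A gene was called at an adjusted p under 0.05 (edgeR, quasi-likelihood, adjusted by Benjamini-Hochberg over all 14227 genes tested). Of all genes tested, 19.8% fell and 19.6% rose by that rule (39.4% in either direction), and with DESeq2 1842 fell and 2815 rose, against 2817 and 2788 with edgeR. The median log2 fold change was -0.58 over the 9 genes and -0.03 over all genes. The genes whose libraries were all lower in old than in young HSC were the same 5, and 25.6% of all genes tested met that rule (22.8% were all higher, 48.4% either). At an unadjusted p under 0.05, 6 fell and 0 rose, and DESeq2 called 5 and 0. The share of all genes under that unadjusted limit was not counted, so the 6 have no background here. Markers of other cells moved beside these genes. Of 10 stem cell markers 4 fell and 1 rose, with a summed level of 256 to 262 CPM in old and 308 to 318 CPM in young libraries. Of 10 erythroid markers 8 fell and 2 rose, and of 10 granulocyte and monocyte markers 8 rose and 2 fell, the sum of the granulocyte and monocyte markers being 48848 to 51902 CPM in old and 33057 to 37151 CPM in young libraries. Their part in the fall of the 5 genes was not tested. These are bulk samples, in which fewer cells of a type and less RNA per cell cannot be told apart.

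**Figure D2:**
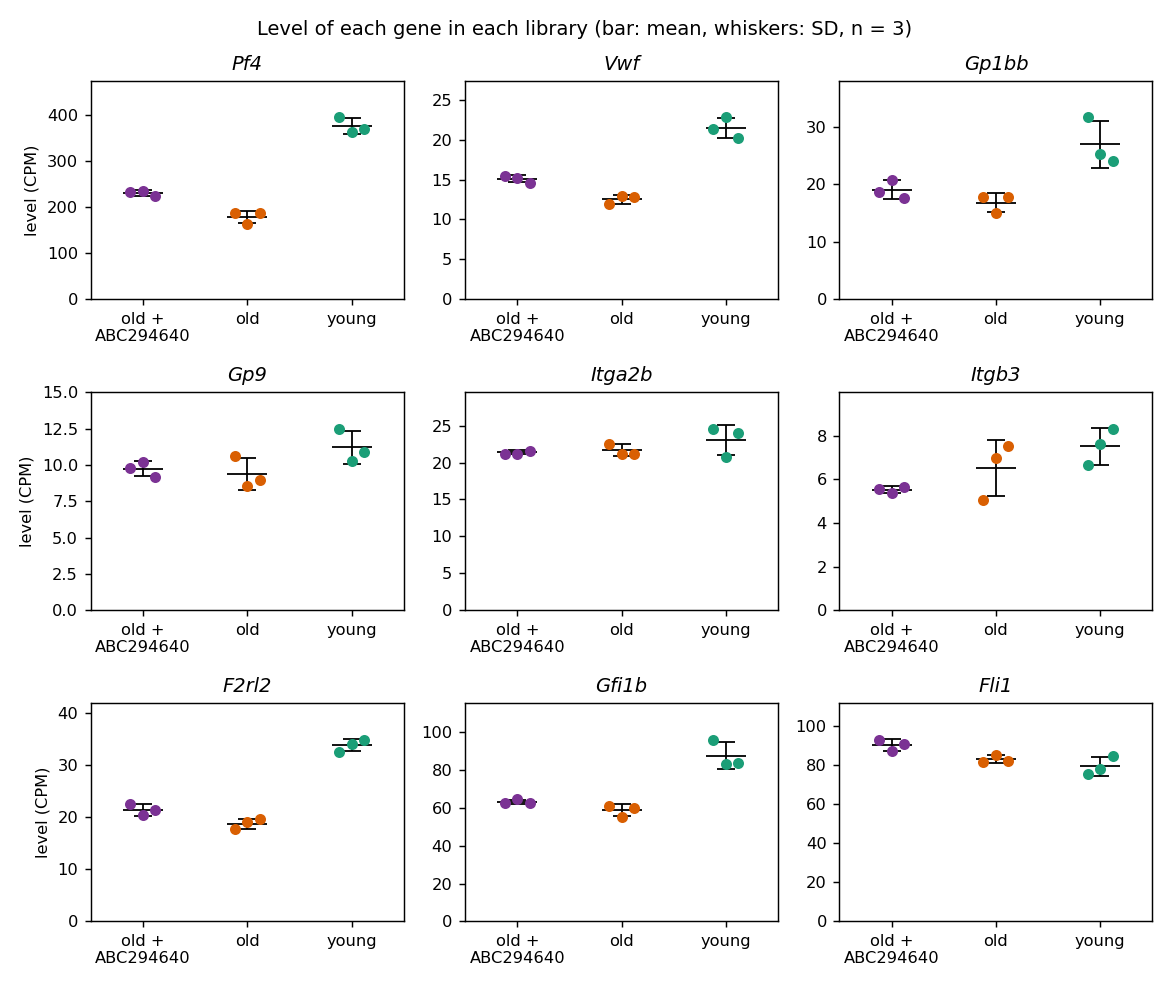
Level in CPM of each of the 9 genes in every library, with treated old, old and young HSC from left to right, the bar at the mean and whiskers of 1 SD (n = 3), each axis starting at 0. In Pf4, Vwf, Gp1bb, F2rl2 and Gfi1b every young library lies above every old and every treated old library, and in Itga2b the groups overlap.

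Pf4 encodes platelet factor 4, a chemokine stored in alpha granules (ENSMUSG00000029373, chromosome 5, 90772435 to 90773383 in GRCm38, plus strand). Its levels were 186, 163 and 186 CPM in old libraries, against 394, 363 and 368 CPM in young ones, and 232, 235 and 224 CPM in treated old ones. The 3 groups did not overlap, with young HSC highest and untreated old HSC lowest. The log2 fold change of old over young HSC was -1.08 ± 0.053 (SE), a 2.11-fold fall, with an adjusted p of 1.55e-12 in edgeR. Of all tested genes, 6.5% had a fold change as low or lower.

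Vwf encodes von Willebrand factor, the adhesive protein of alpha granules and of endothelium (ENSMUSG00000001930, chromosome 6, 125546774 to 125686679, plus strand). Its levels were 11.9, 12.9 and 12.8 CPM in old libraries, against 21.4, 22.8 and 20.2 CPM in young ones, and 15.5, 15.2 and 14.6 CPM in treated old ones. As for Pf4, the 3 groups held 3 separate ranges in the same order. Old over young HSC gave a log2 fold change of -0.77 ± 0.085, with an edgeR adjusted p of 3.79e-07. Vwf is also an endothelial gene. The summed level of 10 endothelial and stromal markers was 50.4 to 54.2 CPM in treated old, 47.0 to 53.4 CPM in old and 61.9 to 69.1 CPM in young libraries. Of the 9 tested, 4 fell in old HSC and 0 rose, where 19.8% of all genes tested fell and 19.6% rose. The defining endothelial cadherin gene Cdh5 averaged 0.0171, 0.1 and 0.0915 CPM in the 3 groups. The part of these markers in the change of Vwf was not tested.

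Of the receptor for von Willebrand factor, Gp1bb encodes the beta chain of glycoprotein Ib (ENSMUSG00000050761, chromosome 16, 18620317 to 18622403, minus strand). It had 17.7, 15.0 and 17.7 CPM in old libraries, against 31.6, 25.2 and 24.0 CPM in young ones, and 18.6, 20.8 and 17.6 CPM in treated old ones. All old libraries lay below all young ones, of which replicate 1 stood highest. In old over young HSC the log2 fold change was -0.69 ± 0.10, with an edgeR adjusted p of 2.43e-05. Its count is uncertain, since 91.1% of its exon bases are also exon of Septin5 on the same strand and 91.5% of its 31-base words recur in transcripts of other genes. Septin5 went the other way, with 2.76 ± 0.339 CPM in old and 0.893 ± 0.312 CPM in young HSC (log2 fold change 1.63 ± 0.27, adjusted p = 7.73e-05). The reads of Gp1bb and Septin5 together, without those of Gm49601, came to 20.5, 17.4 and 20.8 CPM in old libraries. In young libraries they came to 32.1, 26.3 and 25.0 CPM, and these groups did not overlap either.

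Gp9 encodes glycoprotein IX, which the complex needs to reach the surface (ENSMUSG00000030054, chromosome 6, 87778072 to 87779768, plus strand). It had 10.6, 8.56 and 8.94 CPM in old libraries, against 12.5, 10.3 and 10.9 CPM in young ones, and old replicate 1 lay within the young range. The log2 fold change was -0.26 ± 0.11 (edgeR adjusted p = 0.0709). It passed the threshold without old replicate 1 (-0.36, adjusted p = 0.031) and with a filter of at least 5 CPM in at least 3 libraries (-0.31, adjusted p = 0.038). The other genes of the complex were not alike. Gp5, its glycoprotein V, fell to 12.1 ± 0.344 CPM in old HSC, against 18.9 ± 1.36 CPM in young HSC (-0.65 ± 0.099, adjusted p = 2.65e-05), and Gp1ba, the alpha chain that binds von Willebrand factor, had 6.51 ± 0.895 and 5.50 ± 0.663 CPM (0.24 ± 0.15, adjusted p = 0.214).

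Itga2b encodes integrin alpha IIb, also known as CD41, which is found on part of the stem cell pool and on megakaryocytes (ENSMUSG00000034664, chromosome 11, 102453297 to 102470122, minus strand). Its levels were 22.5, 21.2 and 21.2 CPM in old libraries, against 24.6, 20.8 and 24.0 CPM in young ones, and the ranges overlapped. Its log2 fold change was -0.10 ± 0.079 (edgeR adjusted p = 0.342). Itgb3, its partner beta 3 (ENSMUSG00000020689, chromosome 11, 104608000 to 104670476, plus strand), had 5.06, 6.99 and 7.53 CPM in old libraries, against 6.64, 7.6 and 8.33 CPM in young ones. Old replicate 1 stood below the other old libraries, the groups overlapped, and the log2 fold change was -0.20 ± 0.14 (adjusted p = 0.281). Beta 3 also pairs with integrin alpha V, so Itgb3 is not limited to this lineage.

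F2rl2 encodes protease-activated receptor 3, which on mouse platelets helps thrombin cleave receptor 4 (ENSMUSG00000021675, chromosome 13, 95696853 to 95702739, plus strand). It had 17.8, 19.0 and 19.6 CPM in old libraries, against 32.6, 34.0 and 34.9 CPM in young ones, and 22.6, 20.4 and 21.3 CPM in treated old ones. The 3 groups did not overlap and stood in the order of Pf4. The log2 fold change of old over young HSC was -0.85 ± 0.073, with an edgeR adjusted p of 1.24e-08.

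Of the transcription factors, Gfi1b (ENSMUSG00000026815, chromosome 2, 28609450 to 28621982, minus strand) had 61.0, 55.0 and 59.7 CPM in old libraries, against 96.0, 83.0 and 83.9 CPM in young ones. Every old library was below every young one, and the log2 fold change was -0.58 ± 0.061 (edgeR adjusted p = 2.03e-07). Fli1 (ENSMUSG00000016087, chromosome 9, 32422204 to 32542861, minus strand) had 81.6, 85.2 and 82.1 CPM in old libraries, against 75.1, 77.7 and 84.7 CPM in young ones, which overlapped. Fli1 had a log2 fold change of 0.07 ± 0.054 (adjusted p = 0.331). GFI1B also acts in red cell precursors, and erythroid markers moved beside it. Of 10 tested, 8 fell in old HSC and 2 rose, where 19.8% of all genes tested fell and 19.6% rose. The summed level of the erythroid markers was 1060 to 1072 CPM in old libraries and 1799 to 1844 CPM in young ones. Their part in the change of Gfi1b was not tested.

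Treated old HSC were set against untreated old HSC for the differences that go with the inhibitor. Of the 9 genes only Pf4 rose, and 0 fell, where 0.766% of all genes tested rose, 0.429% fell and 1.19% did either. These counts over all genes, 109 higher and 61 lower, varied with the library left out. They were 31 and 38 without treated replicate 1, 17 and 31 without treated replicate 2, and 101 and 46 without treated replicate 3. Without old replicate 1, 2 or 3 they were 52 and 39, 40 and 37, or 121 and 55. Without young replicate 1, 2 or 3 they were 175 and 111, 98 and 67, or 89 and 59. Pf4 stood at 230 ± 5.70 CPM in treated old HSC and 178 ± 13 CPM in old HSC, a log2 fold change of 0.37 ± 0.053 or 1.29-fold (edgeR adjusted p = 0.000632). Every treated library was above every untreated old one and below every young one. Without any 1 of the 9 libraries the log2 fold change of Pf4 was between 0.31 and 0.40, with an adjusted p of at most 0.01. Erythroid markers moved beside it, with a summed level of 1162 to 1174 CPM in treated and 1060 to 1072 CPM in untreated old libraries; 1 of 10 rose and 0 fell, and their part in the change of Pf4 was not tested.

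**Figure D3:**
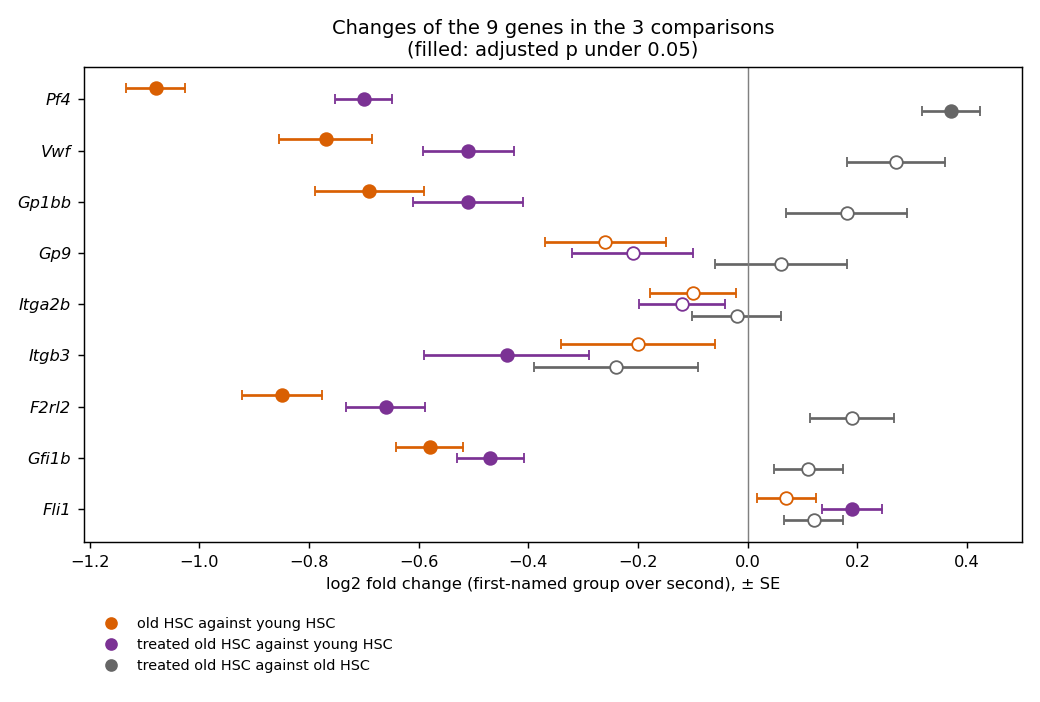
The log2 fold change of each of the 9 genes with its SE in old against young, treated old against young, and treated against untreated old HSC, filled where the adjusted p was under 0.05. Pf4, Vwf, Gp1bb, F2rl2 and Gfi1b lie left of 0 in both comparisons with young HSC, and of the changes with treatment only that of Pf4 (0.37 ± 0.053) is filled.

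The other 8 genes did not pass in treated against untreated old HSC. In 4 of them all treated libraries were nevertheless above all untreated old ones, namely Vwf, F2rl2, Gfi1b and Fli1. With Pf4 that made 5 of 9 genes, and 8.34% of all genes tested met that rule (7.13% were all lower, 15.5% either). The log2 fold change was 0.27 ± 0.089 for Vwf (edgeR adjusted p = 0.248), 0.19 ± 0.077 for F2rl2 (adjusted p = 0.429), 0.12 ± 0.054 for Fli1 (adjusted p = 0.513) and 0.11 ± 0.063 for Gfi1b (adjusted p = 0.664). Gp1bb and Gp9 had 0.18 ± 0.11 (adjusted p = 0.685) and 0.06 ± 0.12 (adjusted p = 0.954), and their libraries overlapped. At an unadjusted p under 0.05, 4 of the 9 rose and 0 fell, but the share of all genes under that limit was not counted. DESeq2 called 1 and 0, with no adjusted p for 2 of the 9. Over all genes DESeq2 called 137 higher and 72 lower, of 7667 with an adjusted p. The median log2 fold change was 0.12 over the 9 genes and 0.00108 over all.

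The integrin genes had log2 fold changes below 0 in treated against untreated old HSC, that of Itga2b turning to 0.01 without old replicate 1. Itga2b had 21.2, 21.2 and 21.6 CPM in treated old libraries, against 22.5, 21.2 and 21.2 CPM in untreated old ones, with a log2 fold change of -0.02 ± 0.081 (edgeR adjusted p = 0.98). Itgb3 had 5.57, 5.36 and 5.65 CPM in treated old libraries, against 5.06, 6.99 and 7.53 CPM in untreated old ones, and untreated replicate 1 was lower than all treated libraries. Its log2 fold change was -0.24 ± 0.15 (adjusted p = 0.713). Neither difference exceeded the spread between libraries.

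In treated old against young HSC, 6 of the 9 genes fell and 1 rose, where 18.5% of all genes tested fell, 19.1% rose and 37.6% did either. In 7 of the 9, all treated libraries were below all young ones, and in 1 above, where 24.7% and 23.7% of all genes tested were so (48.4% either). This comparison shares the young libraries with that of old against young HSC and the treated ones with that of treatment, so its values are set beside theirs and are not a further replicate. The log2 fold changes of treated old and of untreated old HSC, each over young HSC, were -0.70 ± 0.052 and -1.08 ± 0.053 for Pf4, -0.66 ± 0.072 and -0.85 ± 0.073 for F2rl2, and -0.51 ± 0.083 and -0.77 ± 0.085 for Vwf. They were -0.51 ± 0.10 and -0.69 ± 0.10 for Gp1bb and -0.47 ± 0.061 and -0.58 ± 0.061 for Gfi1b. Treated old HSC thus remained below young HSC in all 5 genes, with edgeR adjusted p-values from 1.27e-09 (Pf4) to 0.00062 (Gp1bb).

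The other calls against young HSC were smaller. Itgb3 fell to 5.53 ± 0.151 CPM in treated old HSC, against 7.52 ± 0.851 CPM in young HSC (log2 fold change -0.44 ± 0.15, edgeR adjusted p = 0.023). That call was lost with DESeq2 (adjusted p = 0.0747), without young replicate 2 (0.054) or 3 (0.104) and without treated replicate 1 (0.0617), 2 (0.0722) or 3 (0.051). Fli1 rose to 90.2 ± 2.98 CPM in treated old HSC, against 79.2 ± 4.97 CPM in young HSC (0.19 ± 0.054, adjusted p = 0.009), and all its treated libraries were above all young ones. That call was lost with the filter of at least 5 CPM in at least 3 libraries (0.13, adjusted p = 0.0614). Gp9 (-0.21 ± 0.11, adjusted p = 0.157) and Itga2b (-0.12 ± 0.079, adjusted p = 0.259) did not pass.

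A further 79 genes of the lineage, sorted by role, were set beside the 9. In old against young HSC, 17 rose and 25 fell of the 71 tested, that is 23.9% and 35.2%, where 19.6% and 19.8% of all genes tested rose and fell, with a median log2 fold change of -0.09. In treated against untreated old HSC 0 of 71 rose and 0 fell in edgeR's test. At an unadjusted p under 0.05, 3 rose and 0 fell, with no count of all genes under that limit to set beside them. DESeq2 called 0 and 0, with no adjusted p for 24 of these genes. In treated old against young HSC, 16 rose and 23 fell (22.5% and 32.4%, against 19.1% and 18.5% of all genes tested). No share of a single role below was tested against that of all genes or of another role.

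Receptors of platelet agonists and their signalling genes fell in 6 of 12 tested and rose in 1 in old against young HSC. Of all genes tested, 19.8% fell and 19.6% rose. F2r, the thrombin receptor 1 gene, fell to 33.5 ± 0.726 CPM in old HSC, against 41.0 ± 1.79 CPM in young HSC. F2rl3, the gene of receptor 4, did not pass, with 9.12 ± 0.444 CPM in old and 8.75 ± 2.04 CPM in young HSC. Its log2 fold change was 0.05 ± 0.14 (edgeR adjusted p = 0.804). The ADP receptor gene P2ry1 fell to 8.95 ± 1.13 CPM in old HSC, against 13.9 ± 0.745 CPM in young HSC, where 23.0% of its exon words recur in other genes and an antisense gene overlaps it. Fcer1g, the signalling chain of the collagen receptor and of mast cell Fc receptors, fell to 204 ± 20.0 CPM in old HSC, against 296 ± 5.85 CPM in young HSC. Mast cell and basophil markers moved beside it, 4 of 6 falling and 1 rising, with a summed level of 225 to 235 CPM in old and 243 to 255 CPM in young libraries, and their part in the change of Fcer1g was not tested. Prkcq, a protein kinase C gene, fell to 12.3 ± 1.62 CPM in old HSC, against 21 ± 1.8 CPM in young HSC. Lat, an adaptor of T cell and platelet receptor signalling, fell to 20.2 ± 1.18 CPM in old HSC, against 24.5 ± 0.696 CPM in young HSC (log2 fold change -0.28 ± 0.078, edgeR adjusted p = 0.00702). Of 8 genes of integrin activation tested, 4 rose in old HSC and 0 fell, where 19.6% of all genes tested rose. Itga2, integrin alpha 2, did not pass, with 0.673 ± 0.159 CPM in old and 0.915 ± 0.15 CPM in young HSC (log2 fold change -0.43 ± 0.35, edgeR adjusted p = 0.352), and all its old libraries were below all young ones. Rasgrp2, an activator of the small GTPase RAP1, rose to 172 ± 6.69 CPM in old HSC, against 138 ± 5.36 CPM in young HSC, and Rap1b itself rose to 571 ± 18.1 CPM, against 471 ± 20.2 CPM. Itgb1, integrin beta 1, rose to 75.5 ± 5.44 CPM in old HSC, against 62.7 ± 6.64 CPM in young HSC. Apbb1ip, the RAP1 effector RIAM, was higher in old HSC with an edgeR adjusted p of 0.0471. That call was lost with DESeq2 (0.0681), the filter of at least 5 CPM (0.11), the 2 groups alone (0.0623), the replicate block (0.0542) and without genes of the X and Y chromosomes (0.0532). It was also lost without young replicate 1 or 3, any 1 old replicate or treated replicate 3 (0.0508 to 0.155).

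Of 16 granule genes, 5 fell and 4 rose in old HSC (31.2% and 25.0%, against 19.8% and 19.6% of all genes tested). Ppbp, a chemokine gene of platelet granules, fell to 4.57 ± 0.691 CPM in old HSC, against 8.99 ± 0.888 CPM in young HSC (log2 fold change -0.98 ± 0.14, edgeR adjusted p = 1.86e-05), and Treml1, a receptor of alpha granule membranes, fell to 2.56 ± 0.356 CPM in old HSC, against 4.85 ± 0.422 CPM in young HSC. Clu, which encodes the secreted chaperone clusterin, rose to 74.4 ± 5.04 CPM in old HSC, against 21 ± 3.22 CPM in young HSC (1.82 ± 0.082, adjusted p = 4.61e-13). Srgn, the granule proteoglycan serglycin of many blood cells, rose to 3456 ± 68.4 CPM in old HSC, against 2291 ± 108 CPM in young HSC, and Serpine2 rose to 77.9 ± 1.30 CPM, against 59.5 ± 2.97 CPM. Beside Srgn, 8 of 10 granulocyte and monocyte markers rose and 2 fell, and their part in its change was not tested. Selp, the P-selectin gene, had 22.3 ± 1.63 CPM in old and 23.7 ± 1.98 CPM in young HSC (-0.09 ± 0.086, adjusted p = 0.45). In treated against untreated old HSC the log2 fold change was 0.29 ± 0.16 for Ppbp (adjusted p = 0.634) and 0.33 ± 0.20 for Treml1 (adjusted p = 0.688). Over all 16 granule genes the median log2 fold change in that comparison was -0.03, and 0 rose and 0 fell.

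**Figure D4:**
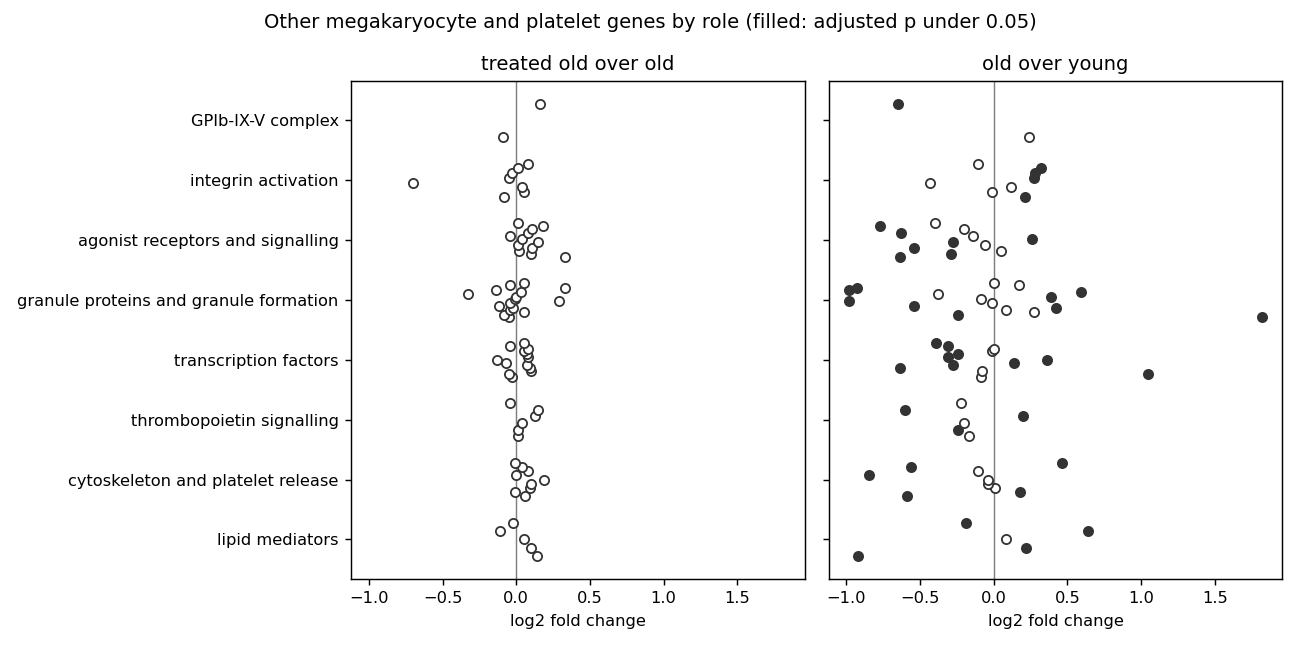
The log2 fold changes of the 71 tested genes of the further list, 1 point per gene and 1 row per role, for treated against untreated old HSC (left) and old against young HSC (right), filled where the adjusted p was under 0.05. In the left plot 0 points are filled, and in the right plot 17 filled points lie right of 0 and 25 left of it.

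Where 19.8% of all genes tested fell and 19.6% rose in old against young HSC, 6 of 13 transcription factor genes fell and 3 rose. Of these calls, that of Zfpm1, a GATA1 cofactor gene that fell (edgeR adjusted p = 0.0389), was lost with DESeq2 (0.158), no filter (0.0845), the 2 groups alone (0.0577) and without young replicate 2 or 3, old replicate 1 or 2 or treated replicate 1 or 2 (0.0532 to 0.172). That of Hhex, a homeobox gene that rose (0.0283), was lost with the filter of at least 5 CPM (0.113) and without young replicate 1 or 3 or old replicate 2 (0.0544 to 0.0812). Gata1, the factor of red cells and megakaryocytes, fell to 22.3 ± 1.67 CPM in old HSC, against 34.9 ± 0.765 CPM in young HSC (log2 fold change -0.64 ± 0.073, edgeR adjusted p = 5.98e-07), and Mef2c fell to 77.1 ± 3.99 CPM, against 96.0 ± 9.70 CPM. Ets1, an ETS factor of lymphoid and other blood cells, rose to 17.7 ± 2.06 CPM in old HSC, against 8.58 ± 0.529 CPM in young HSC (1.05 ± 0.10, adjusted p = 8.66e-08). Mafg, a partner of NF-E2, rose to 49.3 ± 3.32 CPM in old HSC, against 38.4 ± 1.84 CPM in young HSC. Nfe2, with 155 ± 4.22 CPM in old and 155 ± 9.36 CPM in young HSC, and Runx1, with 45.7 ± 3.04 and 45.7 ± 4.70 CPM, did not pass (adjusted p = 0.927 and 0.976).

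Thrombopoietin is the cytokine that drives megakaryocytes and maintains stem cells, and 2 of its 6 tested signalling genes fell and 1 rose in old against young HSC. Of all genes tested, 19.8% fell and 19.6% rose, the shares to set beside each role's count in this paragraph. Stat5a, a transcription factor activated by cytokine receptors, fell to 14.2 ± 1.31 CPM in old HSC, against 21.6 ± 1.07 CPM in young HSC, and Stat3 rose to 60.8 ± 1.57 CPM, against 52.9 ± 2.57 CPM. Of 9 genes of the cytoskeleton and of platelet release, 3 fell and 2 rose. The rise of Diaph1, a formin gene (edgeR adjusted p = 0.0171), was lost with the filter of at least 5 CPM (0.0573) and without old replicate 1 (0.0534) or 3 (0.0553). The myosin light chain kinase gene Mylk fell to 3.27 ± 0.609 CPM in old HSC, against 5.92 ± 0.448 CPM in young HSC, the granule transport gene Rab27b to 21.2 ± 1.63 CPM, against 31.2 ± 2.77 CPM, and Cavin2 to 18.4 ± 0.866 CPM, against 27.7 ± 2.34 CPM. Tuba8, an alpha tubulin gene, rose to 141 ± 4.19 CPM in old HSC, against 102 ± 5.13 CPM in young HSC, and 17.1% of its words recur in other genes. Of 5 genes of lipid mediators, 2 rose and 2 fell. Ptgs1, cyclooxygenase 1, rose to 68.1 ± 5.56 CPM in old HSC, against 43.7 ± 1.86 CPM in young HSC, and Alox5ap, which serves leukotriene synthesis, rose to 433 ± 22.8 CPM, against 371 ± 12.0 CPM. The thromboxane synthase gene Tbxas1 (adjusted p = 0.0421) and the platelet lipoxygenase gene Alox12 (0.0235) were lower in old HSC. The Tbxas1 call was lost without young replicate 1 or 2, any old replicate or any treated replicate (0.053 to 0.246), and with RLE size factors (0.06), DESeq2 (0.165), no filter (0.141) and the 2 groups alone (0.071). That of Alox12 was lost with DESeq2 (0.0717) and without young replicate 1 (0.0729) or 3 (0.057) or old replicate 1 (0.122).

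The genes nearest in pattern to Pf4 and Vwf were taken from 7725 genes with a mean of at least 10 CPM, by the Euclidean distance of log2(CPM + 1), centred on each gene's mean, over the 9 libraries. Nearest to Pf4 were Lgals1 (distance 0.15), Gucd1 (0.264) and the histone gene H4c17 (0.296), whose reads are uncertain because 91.7% of its 31-base words recur elsewhere. Lgals1, the galectin 1 gene, had 369 ± 13.9 CPM in treated old, 307 ± 20.0 CPM in old and 606 ± 25.4 CPM in young HSC. Nearest to Vwf were Xaf1 (0.145), the G protein subunit gene Gng2 (0.174) and the urea transporter gene Slc14a1 (0.195). Of the 31-base words of Gng2, 20.4% recur in other genes, so its reads are less certain. Xaf1 had 58.7 ± 3.63, 50.4 ± 2.62 and 83.8 ± 0.969 CPM in treated old, old and young HSC.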

How the data were processed

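RNA of sorted cells labelled HSC was measured in 9 libraries made with 12 PCR cycles, with groups from the sample titles. The deposited values are expected counts per gene, of which 56.0% of those above 0 are whole; they were rounded to whole numbers. The submitters' processing notes name STAR 2.6.1d, HTSeq 0.10.0, Trim Galore 0.6.2, edgeR 3.24.3 and the build mm10 without role or order. Neither the step that left fractions nor the use of strand is stated in the sources at hand. The fit used edgeR 4.0.16 in R 4.3.3 (TMM, default filter by group, quasi-likelihood, all 9 libraries, group as the only term); DESeq2 1.42.0 was an alternative. The fit was tested on simulated counts. Coordinates and exon lengths are from GENCODE mouse release M21 (GRCm38), which holds all 23317 identifiers. Genes are the 9 members, in the further list up to 4 genes per role of smallest p for age and up to 2 for treatment plus Gp1ba, Gp5, Gata1, Runx1, Nfe2, Selp and Ppbp, and the 3 nearest patterns of Pf4 and Vwf. Elane, Ddx3y, Cdh5, Septin5, Tubb1, Gp6, P2ry12, F2rl3, Zfpm1, Hhex and Diaph1 were picked after their values were seen. One further gene of the rule is not reported here. Members and lists were chosen with earlier results of these data known. Reads without molecular identifiers are not independent molecules.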

Additional observations from a re-analysis of the deposited data

How the results depend on the processing

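The counts of the 9 genes and of the further list, and the log2 fold change of each of the 9 genes, were recomputed with RLE size factors, DESeq2, no filter, a filter of at least 5 CPM in at least 3 libraries, fits of just the compared groups, a replicate block, values rounded down, each library left out, and, chosen after seeing the data, without genes of the X and Y chromosomes. Of 459 such log2 fold changes, 448 kept their direction and their side of the threshold. With the filter of at least 5 CPM, 0 of the 9 genes rose in treated old against young HSC in place of 1. In treated against untreated old HSC, leaving out a library gave log2 fold changes between -0.04 and 0.01 for Itga2b and between -0.01 and 0.15 for Gp9. The calls of Gp9, Itgb3 and Fli1 that changed stand beside their values. The same replicate number is shared by groups with no statement of what it marks, and deviations of same-numbered libraries correlated between -0.155 and 0.184, against -0.168 to 0.149 for the others. With the replicate block, 5 of the 9 genes fell and 0 rose in old against young HSC, 1 rose with treatment (Pf4, 0.37), and 6 fell and 1 rose in treated old against young HSC. Over all genes, treatment gave 128 higher and 67 lower with the block, against 109 and 61 without it, 219 and 114 with no filter, and 164 and 96 in the fit of just the compared groups. Counts of 0 to 9 per library, as in Tubb1 and Gp6, are too few to compare.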
